A study of Mus musculus with 20 samples.

Results

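Livers of 6 mice kept at a low gamma dose-rate were compared with the control pool of their own experiment, 6 and 2 of the 20 arrays of the series. The arrays were chosen by their labels and not by any measured value. The low dose-rate mice of experiment 1 received 0.042 mGy per day of 137Cs gamma rays for 485 days, 20.6 mGy in all, and those of experiment 2 received 0.05 mGy per day for 401 days, 20 mGy in all. The pools came from unirradiated mice of the same experiments, with RNA of 3 mice on the experiment 1 array and of 6 mice on the experiment 2 array. Every mouse was a male C57BL/6J aged 8 weeks at the start, irradiation ran for 22 h per day, and each low dose-rate array held the RNA of 1 mouse. The other 12 arrays held 3 mice per experiment at a medium dose-rate (0.858 or 1 mGy per day, 416 or 401 mGy in all) and 3 at a high dose-rate (16.6 or 20 mGy per day, 8030 or 8015 mGy in all). Livers were taken as soon as irradiation stopped. The sources used here do not give the time of day, a pool has no spread of its own, and pooled RNA was set against single mice.

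Gamma rays break DNA directly and through the radicals they make in water. Cells answer large acute doses through p53, which switches on genes of arrest, repair and cell death. The liver runs much of its metabolism on a daily program: the activators BMAL1 and CLOCK drive Per, Cry and Nr1d genes, whose products repress them, and drive the transcription factors Dbp and Tef, which carry the rhythm to metabolic genes. PPAR alpha, a nuclear receptor that binds fatty acids, switches on the genes that burn fat in fasting and is itself under daily control.

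The sequences below are shown because Tef, Per3 and other clock genes are among the named genes lower in the low dose-rate livers. They are the 250 bases before the start site, from RefSeq on GRCm38.p6, of the 4 clock genes whose window held a searched motif, with the motif in capitals. The motifs were CACGTG, the E-box through which BMAL1 and CLOCK act, and TTATGTAA, the D-box through which Dbp and Tef act, both strands searched and with no overlap between them. The windows are chr15:81802423-81802672, forward strand, for Tef, chr11:69098699-69098948, forward strand, for Per1, chr10:85185055-85185304, reverse strand, for Cry1, and chr4:151044666-151044915, reverse strand, for Per3.
Tef: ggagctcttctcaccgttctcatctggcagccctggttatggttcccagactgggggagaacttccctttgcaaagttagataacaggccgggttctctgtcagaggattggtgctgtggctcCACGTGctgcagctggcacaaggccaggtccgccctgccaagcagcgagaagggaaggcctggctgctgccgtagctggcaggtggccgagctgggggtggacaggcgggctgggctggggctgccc
Per1: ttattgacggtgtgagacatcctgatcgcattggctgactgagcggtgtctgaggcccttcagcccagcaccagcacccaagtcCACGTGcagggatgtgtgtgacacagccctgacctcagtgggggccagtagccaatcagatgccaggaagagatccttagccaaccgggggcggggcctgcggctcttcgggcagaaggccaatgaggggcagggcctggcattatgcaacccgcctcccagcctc
Cry1: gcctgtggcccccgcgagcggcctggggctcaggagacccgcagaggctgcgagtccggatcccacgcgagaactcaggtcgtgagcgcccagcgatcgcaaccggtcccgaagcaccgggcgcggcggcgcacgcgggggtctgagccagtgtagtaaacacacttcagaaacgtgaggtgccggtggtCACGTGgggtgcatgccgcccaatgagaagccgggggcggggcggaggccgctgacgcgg
Per3: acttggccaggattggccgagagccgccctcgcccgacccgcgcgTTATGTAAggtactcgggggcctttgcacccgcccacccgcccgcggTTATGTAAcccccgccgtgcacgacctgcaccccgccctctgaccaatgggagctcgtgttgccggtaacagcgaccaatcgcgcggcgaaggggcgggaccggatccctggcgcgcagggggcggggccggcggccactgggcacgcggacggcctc
Of the 17 clock genes measured, 15 had a promoter in the RefSeq table. The E-box was found in 3 of these 15 (20%), against 6.86% of all 27025 genes in the table, and the D-box in 1 (6.67%), against 0.977%. These matches describe the letters in the window only. Tef and Per3 were lower than the own pool in 6 of 6 low dose-rate mice, whereas Per1 and Cry1 were lower in 4 of 6.

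The first question was which genes differ between low dose-rate livers and the control pools. Ccdc8, which encodes a component of the 3M complex with cullin 7, was the 1 gene past the threshold. Its signal was 96.1, 223.4 and 97.8 in the low dose-rate mice of experiment 1, against 13.9 in their pool, and 113.8, 129.3 and 139.4 in those of experiment 2, against 35.8. All 6 mice lay above both pools, which is no separate evidence, since Ccdc8 was picked by the p of this comparison. In log2 units the rise was 2.17 ± 0.34 (SE, with limma's adjusted p = 0.03), which is 4.49-fold with a 95% confidence interval of 1.45 to 2.88 in log2. Log2 values here are of signal plus 7.12, the 10th percentile of all signals. Both pool signals lie under the array medians of 81.3 to 104.8 and may be near background, which leaves the size uncertain. Genes were kept by their mean log2 signal over all 20 arrays, with a limit of about 75.5 in signal. Both pools lie under that limit, so Ccdc8 was kept through the irradiated arrays. With no such filter the log2 difference was also 2.17, and limma's adjusted p was 0.0921. Of the other 3 measured genes of the 3M complex and cullin 7 ligase list, Cul7, the cullin scaffold, was -0.27 ± 0.21, Skp1 was 0.06 ± 0.13 and Fbxw8 was 0.01 ± 0.19, and none passed.

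In all, 1 of 11216 genes passed (0.00892%), 1 higher and 0 lower. An unadjusted limma p under 0.05 was found for 429 genes (3.82%), 243 higher and 186 lower, against 561 that chance alone gives on average. The call of Ccdc8 was lost under 14 of the 33 alternatives that measured it, with adjusted p from 0.000983 to 0.999 over the 33. It was lost without the experiment 1 pool (1.70, adjusted p = 0.501), without low mouse 2 of experiment 2 (2.18, adjusted p = 0.0692), without low mice 2 and 3 of experiment 1 together (1.99, adjusted p = 0.103), and without any one of medium mice 1 and 3 of experiment 1, medium mice 1 and 2 of experiment 2 or high mice 2 and 3 of experiment 2 (2.17 in each fit, adjusted p from 0.0501 to 0.0565).

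The signal of Ccdc8 in the other irradiated livers was in the same range. It was 105.4 to 165.8 in the 6 medium dose-rate mice and 92.3 to 176.9 in the 6 high dose-rate mice. Low differed from medium by 0.05 ± 0.24 and from high by 0.10 ± 0.24 (adjusted p = 0.974 and 0.911 by limma). Against the same 2 pools the difference was 2.17 at the low, 2.12 at the medium and 2.06 at the high dose-rate, values that share their pools. Those fits called 3 genes at the medium (0.0267%) and 6 at the high dose-rate (0.0535%).

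**Figure D1:**
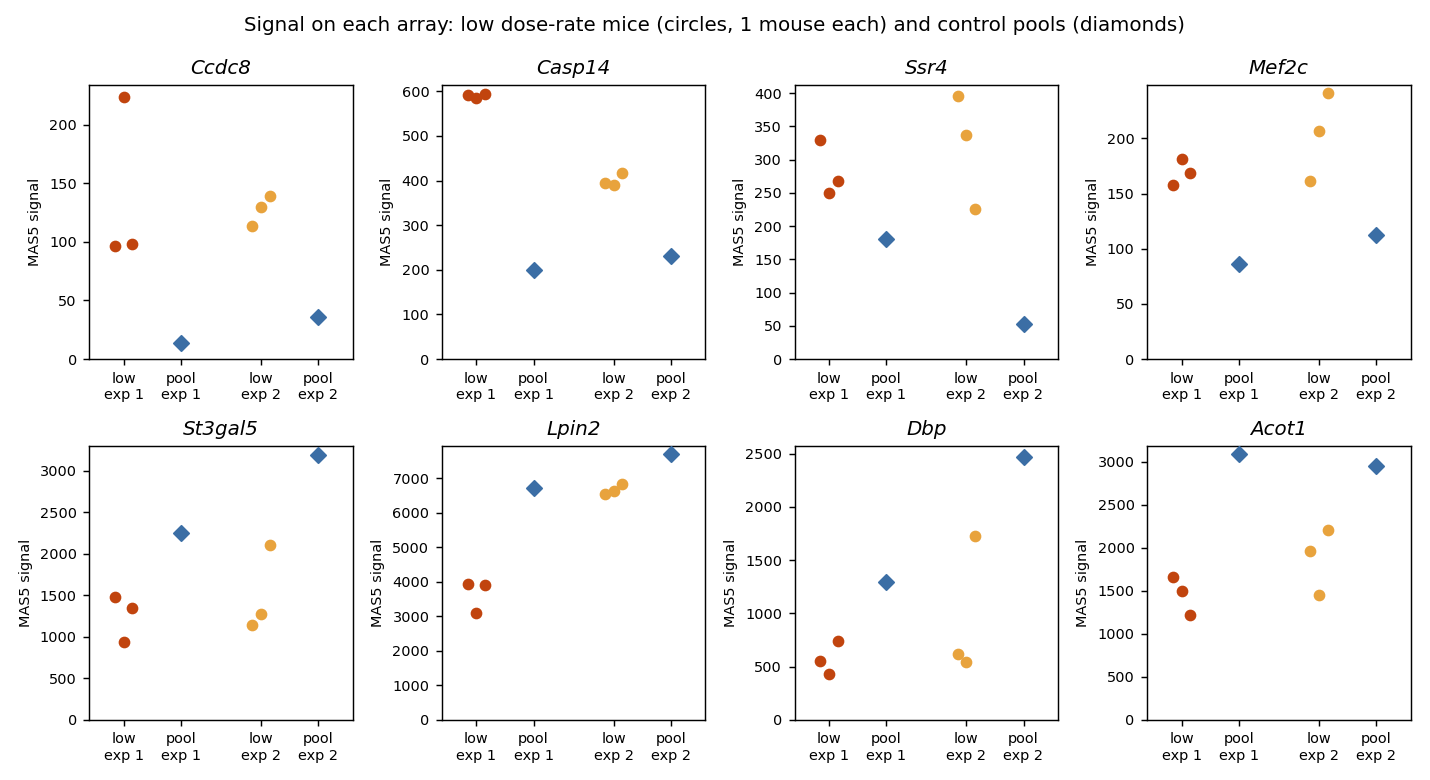
Signal, linear and from 0, of 8 named genes on each array. Circles are low dose-rate mice, 1 mouse each, and diamonds are the control pools of experiments 1 and 2. In each panel all 3 mice of an experiment lie on the same side of their pool. Ccdc8 passed the threshold and the other 7 genes did not.

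The next genes in order were higher in 6 of 6 low dose-rate mice and did not pass. Casp14, a caspase of epidermal differentiation, had signals of 592.1, 584.3 and 594.6 in low dose-rate mice of experiment 1, against 199.6 in the pool, and 394.4, 389.4 and 417 in experiment 2, against 231.5. These 6 values do not overlap the pools, but Casp14 was picked by p and by 6 of 6 mice higher, so this is no separate evidence. The difference was 1.15 ± 0.23 (adjusted p = 0.136 by limma). The probe set used is of a kind that can share signal with other transcripts, and the second one, too dim to pass the filter, gave 0.53 with 3 of 6 mice higher. Esco1, an acetyltransferase of cohesin, which holds sister chromatids together, had 856.6 to 1219.8 in the 6 low dose-rate mice, against 741.9 and 739 in the pools (0.49 ± 0.12, adjusted p = 0.55). C730049O14Rik, a transcript named only by its clone, had 15571.4 to 19035, against 10362.3 and 12871.4 (0.59 ± 0.15, adjusted p = 0.624). Every pool signal of these 3 genes is above the array medians.

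For several other genes in this direction a pool was dim or the probe sets disagreed. Ssr4, a subunit of the translocon-associated complex of the endoplasmic reticulum, was 1.51 ± 0.29, but the more abundant of its other probe sets gave -0.01, with a mean signal of 7588 in the low dose-rate mice, against 9591 and 5854.8 in the pools. Nova2, a splicing factor known from neurons, was 1.48 ± 0.33 against pool signals of 20.6 and 147.7. Hebp2, a heme-binding protein, was 2.09 ± 0.49 against 6.3 and 73.7, while its 2 dimmer probe sets gave -0.14 and -0.05. Plaur, the urokinase receptor, was 1.52 ± 0.38 against 72.9 and 22.3. Mef2c, a transcription factor of muscle and B cells, was 0.85 ± 0.22, while its 4 other probe sets ran between -0.06 and 0.73. Prrt1 was 1.05 ± 0.26, but 0.49 without the experiment 1 pool, and its second probe set gave -0.49 with 1 of 6 mice higher. Zfp580 (0.74 ± 0.18) and Spryd3 (0.73 ± 0.19), each with 1 probe set and pools above the array medians, complete the 12. Without the experiment 2 pool Casp14, Nova2, Hebp2 and Prrt1 passed (adjusted p from 0.000625 to 0.0308), and without the experiment 1 pool Ssr4 did (2.27, adjusted p = 0.00623). Of these 12 genes 10 were above the own pool in all 18 irradiated mice, against 98 of all 591 genes above it in the 6 low dose-rate mice. All 18 differences use the 2 pools by which the genes were picked.

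Among genes lower in 6 of 6 low dose-rate mice, St3gal5, the sialyltransferase that makes the ganglioside GM3, came first. It had 1481.8, 941.6 and 1351.8 in low dose-rate mice of experiment 1, against 2244.1 in the pool, and 1143.2, 1272.4 and 2100.1 in experiment 2, against 3187.9. Its difference was -0.99 ± 0.18 (adjusted p = 0.125 by limma), 1.99-fold lower, and a second probe set gave -0.69, also lower in 6 of 6. St3gal5 passed without low mouse 1 of experiment 1 (-1.06, adjusted p = 0.0427), without low mouse 3 of experiment 2 (-1.10, adjusted p = 0.0146) and with pools weighted by their mice (-1.02, adjusted p = 0.000983). Of 14 measured genes of ganglioside and glycosphingolipid synthesis 10 were lower (50.1% of all genes were), with a median of -0.05, and 2 had an unadjusted p under 0.05 (1.66% of all genes in that direction). St3gal5, for which the list was drawn up, is 1 of the 2, and the other was Cers6, a ceramide synthase (-0.48 ± 0.21), whereas Sptlc2, a subunit of the enzyme that starts sphingolipid synthesis, was 0.36 ± 0.20.

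Lpin2, a phosphatidate phosphatase that makes diacylglycerol, had 3931.4, 3096.6 and 3910.9 in low dose-rate mice of experiment 1, against 6703.4, and 6529.3, 6623.8 and 6843.4 in experiment 2, against 7711. The difference was -0.55 ± 0.14 (adjusted p = 0.55), -0.89 in experiment 1 and -0.21 in experiment 2, and the 3 other probe sets of Lpin2 gave -0.67 to -0.28. Acot1, a thioesterase that frees fatty acids from coenzyme A, had 1661.3, 1491.9 and 1215.3, against 3092.2, and 1962, 1447.1 and 2202.1, against 2953.1. That is -0.89 ± 0.25 (adjusted p = 0.725), with all 6 mice below both pools. Acot1 was picked by p and by 6 of 6 mice lower, so this is no separate evidence. Slc25a13, the mitochondrial aspartate and glutamate carrier of the urea cycle, was -0.39 ± 0.12, and Mtss1, an actin-binding membrane protein, was -0.48 ± 0.13, with 4 of its 5 other probe sets higher. Fam214a (-0.64 ± 0.16), Spata2l (-0.75 ± 0.19), Vrk3 (-0.47 ± 0.13), Fbxo31 (-0.61 ± 0.17) and Osbpl1a (-0.26 ± 0.08) were also lower in 6 of 6, and none passed. Second probe sets of Fam214a (-0.381) and Fbxo31 (-0.553) each had 2 of 6 mice higher, and that of Osbpl1a (-0.107) had 1. Dbp and Tef complete these 12 genes, 9 of which were below the own pool in all 18 irradiated mice, against 106 of all 533 genes below it in the 6 low dose-rate mice, with the same pools used throughout. With pools weighted by their mice, Ssr4, Casp14, Esco1, Plaur, Zfp580, Mef2c, Fam214a, Spata2l, Mtss1, Vrk3, Fbxo31 and Cldn22 also passed (adjusted p from 0.0181 to 0.0426).

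All 6 low dose-rate mice were above their own pool for 591 of 11216 genes (5.27%) and below it for 533 (4.75%). The stricter rule of at least 1.5-fold in all 6 mice, which has no test, held for 18 genes (0.160%), 16 higher (0.143%) and 2 lower (0.0178%). The filter on low signal used the mean over all 20 arrays, 18 of them irradiated. Genes dim in the pools could pass it through the irradiated mice, while genes dim in those mice could fail it. The split of 16 higher and 2 lower can thus depend on the filter. Most of the 16 were dim, with a median pool signal of 51.2. They include Krtap3-1, a hair keratin-associated protein (87.1 to 176.3 in the 6 low dose-rate mice, against 31.4 and 23.4 in the pools), Cldn22, a tight junction protein (54.4 to 256.4, against 45 and 18.8), Chrna4, a nicotinic receptor subunit (105.2 to 181.7, against 44.3 and 49.2), Mag, a myelin glycoprotein (61.5 to 149.9, against 47.4 and 32), Pax5, a B cell transcription factor (96.7 to 215.4, against 53.3 and 88.4), and Hrk, a member of the BCL2 family that promotes cell death (82.4 to 201.3, against 65.7 and 47.9). A dimmer probe set of Pax5 gave -0.81, and the others of Chrna4 gave -0.04 and 0.55. The 2 lower genes were St3gal5 and Poc5, a centriole protein (10.3 to 85.5, against 135.4 and 177.9), whose dimmer probe set gave 0.85 with 3 of 6 mice higher.

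Genes of the circadian clock were lower in 14 of 17 cases in the low dose-rate livers, with a list median of -0.29, against 5619 of 11216 genes lower (50.1%) and a median of -0.0004 over all genes. Of the 17, 8 were below the own pool in 6 of 6 mice (4.75% of all genes were) and 6 had an unadjusted p under 0.05 in that direction (1.66% of all genes had), while 0 passed after adjustment with equal weights. The list was chosen with these results known, so its counts are a description. The median was -0.52 in experiment 1 and -0.10 in experiment 2, and it was -0.20 without the experiment 1 pool and -0.44 without the experiment 2 pool.

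Of the output factors of the clock, Dbp had 549.2, 429.9 and 739.4 in low dose-rate mice of experiment 1, against 1290.2 in the pool, and 618.6, 545.7 and 1724.9 in experiment 2, against 2472.4. All 6 lay below their pool, mouse 3 of experiment 2 being nearest to it, and the difference was -1.38 ± 0.36 (adjusted p = 0.627 by limma). The second probe set of Dbp gave -1.54. Dbp and Tef passed with pools weighted by their mice (-1.40 and -0.45, adjusted p = 0.0254 and 0.0426). Tef, whose E-box is printed above, had 1461.1 to 1503.9 in experiment 1, against 1758.3, and 1719.7 to 2049.9 in experiment 2, against 2749 (-0.41 ± 0.12, adjusted p = 0.725). The other probe sets of Tef gave -1.008 and 0.378, with 2 and 3 of 6 mice higher. Hlf, the third factor of this family, was -0.29 ± 0.16, and Nfil3, the repressor that competes with them, was -0.32 ± 0.22. Usp2, a deubiquitinase driven by the clock, was -0.98 ± 0.36, with 186.3, 278.2 and 213.7, against 359.4, and 343.4, 362.5 and 427, against 923.8, and its second probe set gave -1.71.

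Of the repressors, Per2 was -0.73 ± 0.35, Per3 -0.68 ± 0.44, Cry2 -0.60 ± 0.20 and Nr1d2, which encodes REV-ERB beta, -0.26 ± 0.09, each lower in 6 of 6 low dose-rate mice. The other probe sets of Per2 gave -0.845 and -0.736, each with 3 of 6 mice higher. Of the 5 other probe sets of Per3, the 3 that passed the filter on low signal were lower and the 2 dimmer ones higher. Nr1d1, which encodes REV-ERB alpha, was -0.96 from its pool in experiment 1 and 0.04 in experiment 2, -0.46 ± 0.25 in all. Per1 (-0.26 ± 0.54), Cry1 (-0.17 ± 0.32) and Bhlhe40 (-0.06 ± 0.22) varied between mice in sign. Arntl, which encodes the activator BMAL1, was the 1 clock gene higher in 6 of 6, with 530.8, 317 and 446.9, against 267.2, and 625.1, 484.8 and 352.7, against 341.1. Its difference was 0.56 ± 0.27, and its second probe set gave 0.22. Clock was 0.25 ± 0.20 and Npas2 0.31 ± 0.48. The list median against the same pools was -0.29 at the low, -0.34 at the medium and -0.36 at the high dose-rate. Of the 17 genes, 14 were lower at the low, 13 at the medium and 11 at the high dose-rate. Low differed from high by a median of 0.10, and 6 of the 17 had an unadjusted limma p under 0.05 (10% of all genes). Whether the time of killing differed between mice and pools cannot be told from the sources used here, and its part in the result was not tested.

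**Figure D2:**
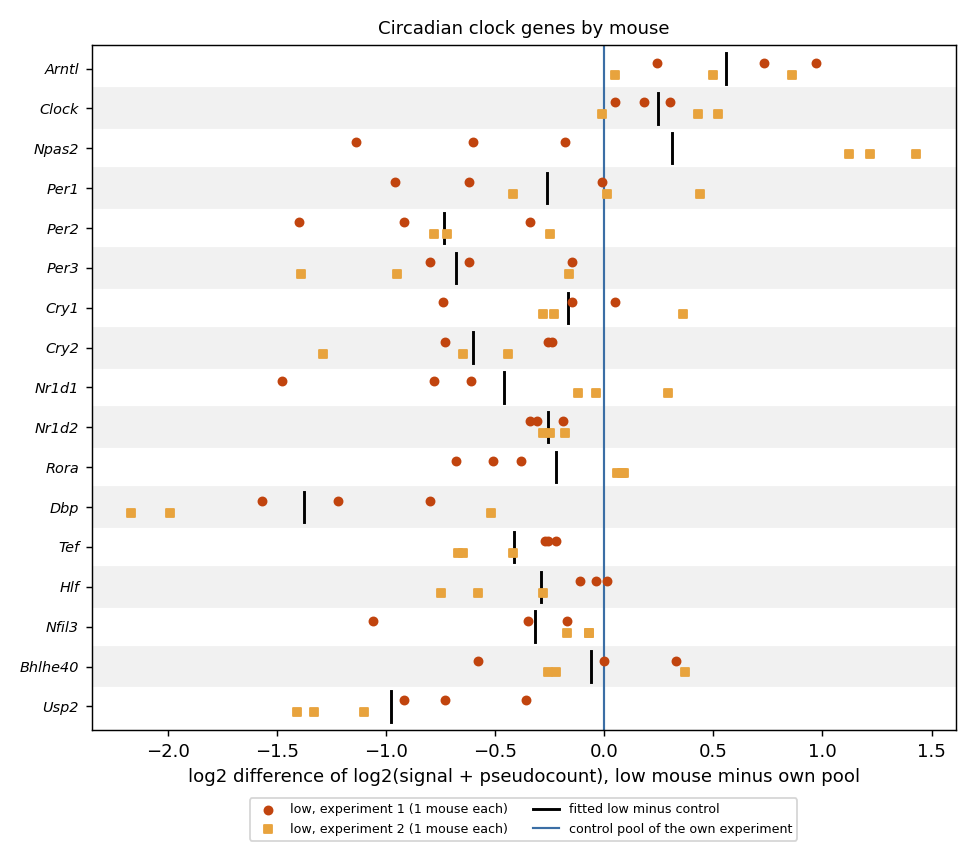
Log2 difference of each low dose-rate mouse from the pool of its own experiment for 17 clock genes, ordered by role: activators, repressors, Rora, then output factors and other targets. Circles are mice of experiment 1, squares mice of experiment 2, black bars the fitted difference, and the line at 0 is the pool. Dbp, Tef, Usp2, Cry2 and Nr1d2 lie left of 0 in 6 of 6 mice and Arntl right of it.

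Genes of fatty acid oxidation and other PPAR alpha targets were lower in 37 of 42 cases (50.1% of all genes were), by a small median of -0.14. This list too was chosen with earlier results of these data known, so its counts are a description. Of the 42, 8 had an unadjusted p under 0.05 in that direction (1.66% of all genes had), 7 were lower in 6 of 6 mice (4.75% of all genes were), and 0 passed after adjustment. The list median was -0.12, -0.30 and -0.14 in low dose-rate mice of experiment 1 and -0.23, -0.25 and 0.10 in those of experiment 2, so mouse 3 of experiment 2 stood on the other side. Without that mouse 41 of 42 were lower and the median was -0.20. Without the experiment 2 pool 29 of 42 were lower.

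The regulators and the entry step were among the larger differences. Ppara, the receptor itself, had 6485.9, 5084.3 and 6247.6, against 7521.7, and 6113.8, 6879.8 and 10065.7, against 12747 (-0.56 ± 0.18, adjusted p = 1 by limma), and its 2 other probe sets gave -0.65 and -0.38. Cpt1a, which carries long-chain fatty acids into mitochondria and limits the rate, had 6867, 4882.7 and 5205.1, against 7539, and 6090.3, 6930.4 and 8125.4, against 9552.8 (-0.44 ± 0.14, adjusted p = 1). Both genes lay below their pool in 6 of 6 mice. Creb3l3, a liver transcription factor that acts with PPAR alpha, was -0.26 ± 0.10, and Hsdl2, a peroxisomal protein, was -0.27 ± 0.11, also in 6 of 6.

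Among target genes, the acyl-CoA thioesterases Acot3 (-1.29 ± 0.56) and Acot4 (-0.64 ± 0.27) were lower in 5 of 6 mice, beside Acot1 in 6 of 6. These 3 genes are close relatives, and their probe sets can share signal. Acot2, of the same family, was -0.19 ± 0.31 with 4 of 6 mice higher. Its other probe set, too dim to pass the filter, gave 0.97 with 6 of 6 higher. Angptl4, a secreted inhibitor of lipoprotein lipase, was -0.63 ± 0.30 in 6 of 6, Cyp4a14, an omega-hydroxylase, -0.53 ± 0.28 in 5 of 6 and Pex11a, a factor of peroxisome division, -0.40 ± 0.20 in 5 of 6. The enzymes of the spiral itself were near the pools: Acadm was -0.05 ± 0.11, Hadha -0.14 ± 0.12, Hadhb -0.02 ± 0.10, Acaa2 -0.03 ± 0.08 and Acadvl -0.10 ± 0.09. Fabp1, an abundant fatty acid carrier, was -0.06 ± 0.09. Against the same pools the list median was -0.14 at the low, -0.07 at the medium and -0.04 at the high dose-rate. Low was below high for 32 of the 42 genes (median -0.13, against 0.0003 over all genes), with 0 past the threshold.

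**Figure D3:**
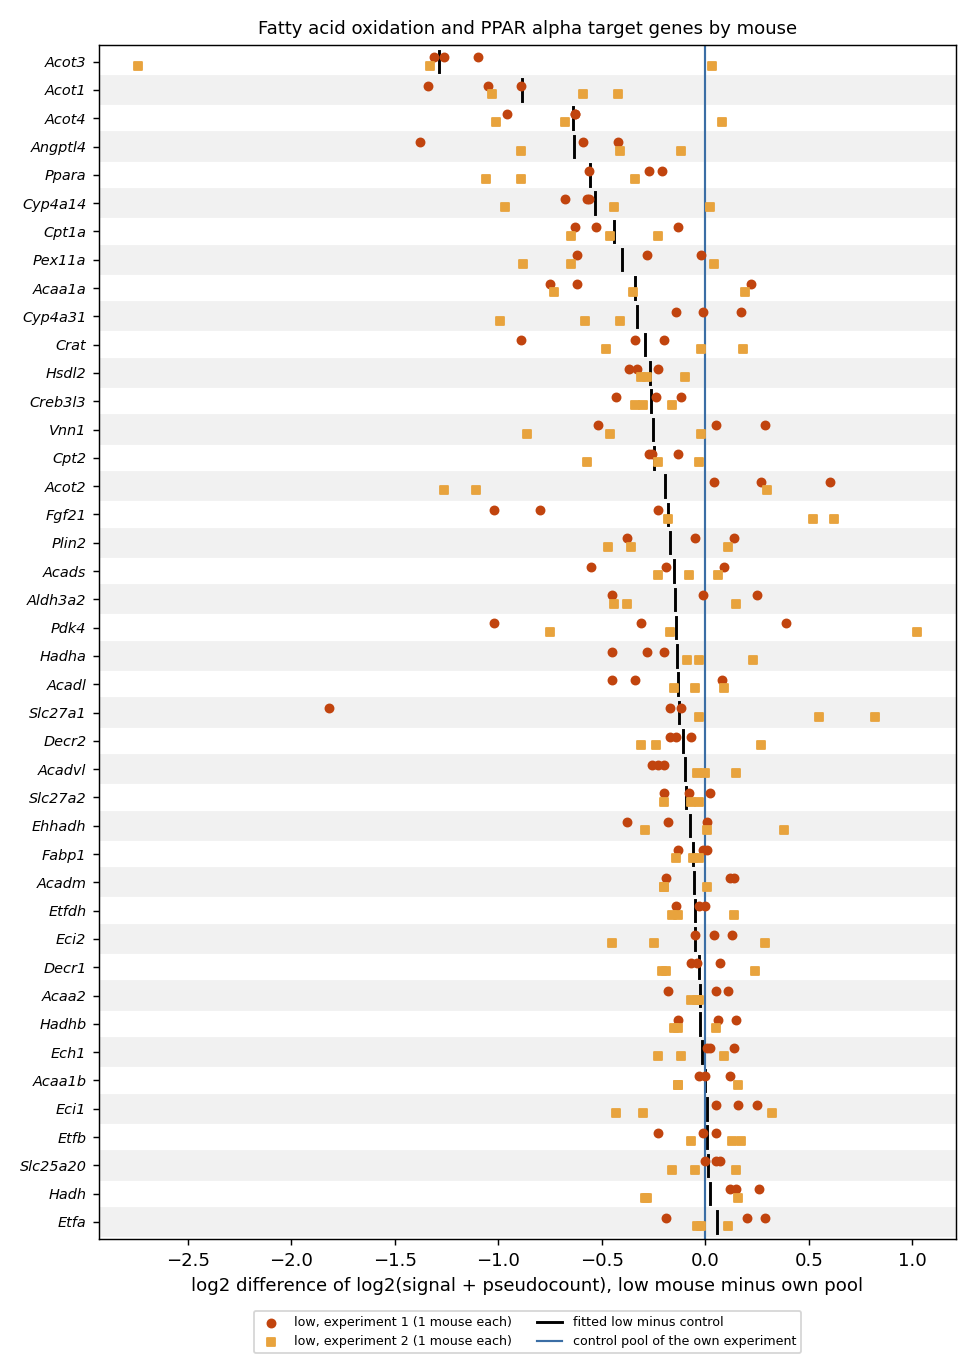
Log2 difference of each low dose-rate mouse from the pool of its own experiment for 42 fatty acid oxidation genes and PPAR alpha targets, sorted by the fitted difference (black bars). Circles are mice of experiment 1, squares mice of experiment 2, and the line at 0 is the pool. The fitted difference is below 0 for 37 genes, and Acot3, Acot1 and Acot4 are at the top.

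Genes of the damage response were split about evenly against the pools. Of 27 p53 targets and checkpoint genes 15 were lower and 12 higher (median -0.04), and of 36 DNA repair enzymes 18 were lower and 18 higher (median -0.01). In both lists 0 genes passed limma's adjusted threshold and 0 had an unadjusted p under 0.05 (3.82% of all genes had). Ccng1, cyclin G1, a p53 target, was -0.29 ± 0.15, Ppm1d, a phosphatase that p53 induces, 0.56 ± 0.31, Sesn2, a stress-induced inhibitor of growth signalling, 0.42 ± 0.24, and Gadd45a, a growth arrest gene, -0.53 ± 0.36. Of 31 antioxidant genes 20 were lower (50.1% of all genes were; median -0.04). Hmox1, heme oxygenase, was the 1 with an unadjusted p under 0.05, at 0.49 ± 0.20, and it was above the own pool in 6 of 6.

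Of 24 heat shock chaperone genes 20 were lower (50.1% of all genes were), with a median of -0.15. The median was -0.35 in experiment 1 and 0.01 in experiment 2. Without the experiment 1 pool 11 of 24 were lower. Fkbp5, a co-chaperone of the glucocorticoid receptor, was -0.51 ± 0.20 and lower in 6 of 6, and Chordc1, an HSP90 partner, was -0.34 ± 0.15. Of 32 genes for ER stress or the amino acid response 23 were lower, again beside 50.1% of all genes. The median was -0.13, with -0.27 in experiment 1 and 0.00 in experiment 2. Atf4, the factor at the centre of the amino acid response, ran the other way in 6 of 6, with 3713 to 4757.5 in experiment 1, against 3147.2, and 2851.1 to 3862.7 in experiment 2, against 2441.7 (0.43 ± 0.14). Herpud1 (-0.52 ± 0.20) and Sel1l (-0.40 ± 0.15), both of the degradation of misfolded proteins, were lower in 5 and 4 of 6 mice. None of these genes passed.

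Hepatocyte markers were bright on every array, with a summed signal of 342900 to 420800 in low dose-rate livers, against 358800 and 407000 in the pools (9 of 9 detected genes, median difference -0.01). In whole liver, fewer cells of a type and less RNA per cell cannot be told apart. B cell markers were higher in 6 of 7 cases (49.9% of all genes were; median 0.57), 2 at an unadjusted p under 0.05 (2.17% of all genes in that direction) and 3 above the own pool in 6 of 6 (5.27% of all genes). Their summed signal was 6750, 2080 and 7128 in low dose-rate mice of experiment 1, against 1795, and 4977, 5062 and 2607 in experiment 2, against 2450. Jchain, the joining chain of IgA and IgM, had 377.4 to 1324.1, against 423.9 and 342.1 (1.06 ± 0.42), and Ighm, the IgM heavy chain, 1012.2 to 4961.6, against 961.4 and 1621.1 (1.14 ± 0.51). The medians against the same pools were 0.57 at the low, 0.59 at the medium and 0.51 at the high dose-rate.

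Mouse 1 of experiment 1 stood apart in neutrophil and acute phase genes. The summed signal of 4 neutrophil markers was 31860 in it, 969.8 and 3712 in the other 2 low dose-rate mice of experiment 1, against 1099 in their pool, and 484.8 to 1052 in experiment 2, against 984.3. Lcn2, which sequesters iron carriers of bacteria, had 28486.9 in mouse 1, against 415.5 in the pool. Saa1 and Saa2, serum amyloid genes of the acute phase, had 53681.6 and 44496.1, against 4026.9 and 1366. For Lcn2 and Saa2 the rise was not limited to mouse 1. Every low dose-rate mouse of experiment 1 lay above the pool (mean log2 difference 2.91 and 2.63). Every one of experiment 2 lay below (-1.03 and -0.8). Without this mouse the neutrophil median was 0.04, against 0.39 with it, and the acute phase list had 14 of 22 genes lower, against 4 of 22. Without it the clock median was -0.37, with 14 of 17 genes lower, and the fatty acid oxidation median was -0.17, with 33 of 42 lower.

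The second question was whether the difference from the pool was the same in both experiments. Of 11216 genes 0 passed limma's test of the interaction of level and experiment, and 483 had an unadjusted p under 0.05 (4.31%). The genes nearest to the threshold in which the experiment 2 difference was lower had a dim reading in the experiment 1 pool. Spen, a repressor of transcription, had 183.1 to 189.6 in low dose-rate mice, against 9.5 in that pool, and 344.5 to 428.9, against 366.6, in experiment 2 (-3.44 ± 0.56, adjusted p = 0.0799). Cela3b, a pancreatic elastase, had 94.7 to 174, against 7.9, and 164.7 to 184.5, against 156.3 (-3.04 ± 0.53, adjusted p = 0.103), and Glmn was -3.13 ± 0.59 (adjusted p = 0.168). In the other direction stood Txndc11 (1.65 ± 0.38), Syvn1, a ubiquitin ligase of the endoplasmic reticulum (1.54 ± 0.36), and Nid2, a basement membrane protein (1.79 ± 0.43), at adjusted p of 0.518 to 0.521. Syvn1 had 938.6 to 989 in experiment 1, against 1883.5, and 1362.6 to 2273.5 in experiment 2, against 1211.5. Its second probe set read 3660.5 and 3807.7 in the pools, with 2 of 6 mice higher, and so did not repeat this split. The other probe sets of Cela3b, too dim to pass the filter, read 69.7, 26.3 and 104.5 in the experiment 1 pool. Over both experiments their low minus control differences were -0.159, 0.369 and -1.181.

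The MHC class II and interferon response lists had medians of opposite sign in the 2 experiments, while the B cell and the Kupffer cell and macrophage lists were above 0 in both (0.86 and 0.57, 0.33 and 0.05). The median of 7 MHC class II genes, which present antigens, was 0.85 in experiment 1 but -0.19 in experiment 2, while 34 interferon response genes had medians of 0.44 and -0.22. Without the experiment 1 pool the interferon median over both experiments was -0.09, with 26 of 34 genes lower, against 0.13 and 11 with it. H2-Ab1, a class II chain, had 565.5 to 1361.7 in low dose-rate mice of experiment 1, against 433.1, and 413.2 to 536.6 in experiment 2, against 560. H2-Eb1, another class II chain, had 1359.7 to 2744.1, against 947.7, and 1088 to 1185.4, against 1291.7. Ctss, a protease that readies class II for its peptide, was 0.84 and -0.19 from its pools. Of both lists 0 genes passed in the low against control fit. A technical value moved with experiment 1, the 18S ribosomal RNA control signal. Its 5' reading was 3280, 43700 and 18600 in the low dose-rate mice, against 782 in the pool. In experiment 2 it was 168 to 253, against 665. The middle and 3' readings differed less, with 3000 and 2260 in low mouse 2 of experiment 1, against 849 and 906. Medium and high dose-rate mice of experiment 1 had 5' readings of 1670 to 16300, also above the pool. Low mice 2 and 3 of experiment 1 had the highest 5' readings. Without them the clock median was -0.28 with 14 of 17 genes lower, and the fatty acid oxidation median was -0.08 with 37 of 42 lower. The interferon median was then 0.03 with 14 of 34 lower.

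**Figure D4:**
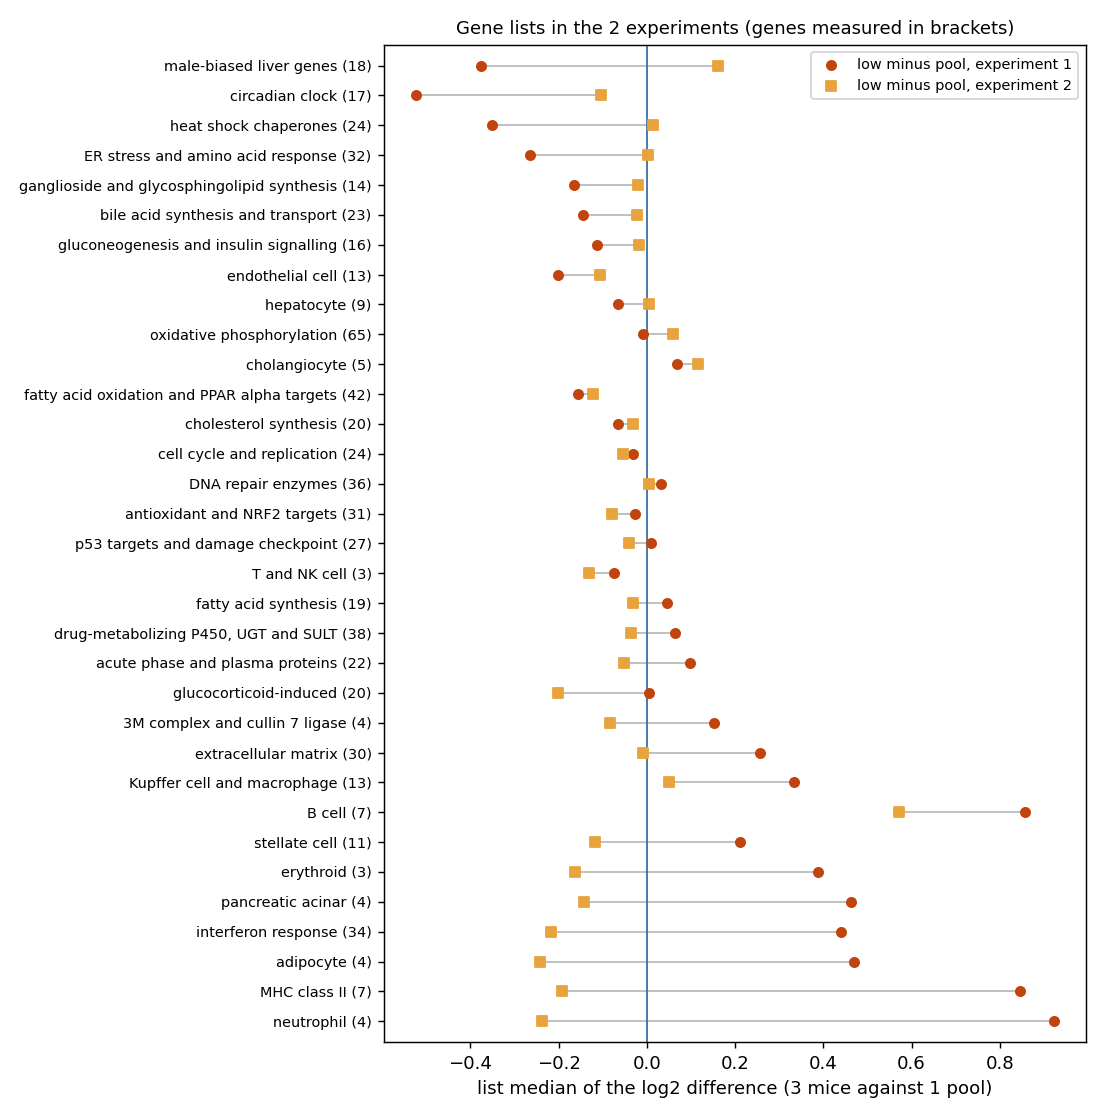
Median over each gene list of the log2 difference of low dose-rate mice from their pool, in experiment 1 (circles) and experiment 2 (squares), with the number of genes measured in brackets and the pool at 0. The clock, fatty acid oxidation and B cell lists lie on the same side of 0 in both experiments, while MHC class II and interferon response lie on opposite sides.

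The third question was where low dose-rate livers differ from those at higher dose-rates, which needs no pool. Of 11216 genes 0 passed for low against medium by limma (889, 7.93%, had an unadjusted p under 0.05) and 0 for low against high (1127, 10%). The nearest for low against high were Banp, a chromatin protein that binds nuclear matrix regions (1.34 ± 0.23), Foxo4, a transcription factor restrained by insulin (0.71 ± 0.13), and Xrn2, a nuclear exonuclease that ends transcription (-0.44 ± 0.08), each at an adjusted p of 0.0586. Foxo4 had 330.7 to 387.6 in the 6 low dose-rate mice, against 157.7 to 283 in the 6 high dose-rate mice, and the 2 groups did not overlap. Lurap1l was 0.72 ± 0.14 (adjusted p = 0.0768), and Rnf125, a ubiquitin ligase, and Mindy2 were -0.41 ± 0.08 and -0.50 ± 0.10 (adjusted p = 0.0852 for both). Rnf125 had 13815.9 to 16403 in low dose-rate mice, against 16572.3 to 22342.3 in high dose-rate mice, with no overlap. Foxo4 and Rnf125 were picked by the p of this same comparison, so their lack of overlap is no separate evidence. Without low mouse 3 of experiment 2, 17 genes passed for low against high, without low mouse 3 of experiment 1 it was 7, and 1 passed without high mouse 1 of experiment 1 or high mouse 3 of experiment 2. With the mouse number as a block 1 passed, though whether the numbers pair the mice was not settled.

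The 3 genes of smallest p in each direction for low against medium were Pde4b, a cAMP phosphodiesterase (-1.07 ± 0.23), H2bc22, a histone H2B gene (1.32 ± 0.30), Nop58, a core protein of nucleolar RNA particles (0.65 ± 0.13), Tbcel (-0.35 ± 0.07) and Bhmt, which makes methionine from betaine (-0.29 ± 0.06), each at an adjusted p of 0.299, and Lurap1l (0.58 ± 0.14, adjusted p = 0.345). Other genes shared the adjusted p of 0.299, Spata2l among them (-0.61 ± 0.13). Pde4b had 211.4 to 542 in low dose-rate mice, against 644 to 904 in medium dose-rate mice, with no overlap. Bhmt had 48912.2 to 59469.2, against 62992 to 69966.8, also with no overlap. Pde4b and Bhmt too were picked by the p of the comparison in which they do not overlap.

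The median of 20 cholesterol synthesis genes was -0.02 at the low, 0.28 at the medium and 0.39 at the high dose-rate against the same pools. Directly, 17 of 20 were lower at the low than at the high dose-rate (median -0.44). In either direction, 13 of the 20 had an unadjusted limma p under 0.05 (10% of all genes), and 0 passed. Idi1, an isomerase of the isoprenoid branch, was -0.76 from high (adjusted p = 0.161), and Insig1, which holds back the SREBP factors, was -0.06. Male-biased liver genes were below high for 0 of 18 (median 0.46) and 5 had an unadjusted p under 0.05. Of 34 interferon response genes 31 were lower at low than at high (median -0.33). In either direction, 12 of the 34 had an unadjusted p under 0.05, and 0 passed. Of 27 p53 targets and checkpoint genes 17 were lower (median -0.17), and 11 of the 27 had an unadjusted p under 0.05 in either direction. For 36 DNA repair enzymes these counts were 21 and 2 (median -0.05). Of 20 glucocorticoid-induced genes 7 were lower (median 0.385), and 11 of the 20 had an unadjusted p under 0.05 in either direction. None passed in these lists. Over all genes the median was 0.0003, and 10% had an unadjusted p under 0.05. The share of all genes lower at low than at high was not computed.

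**Figure D5:**
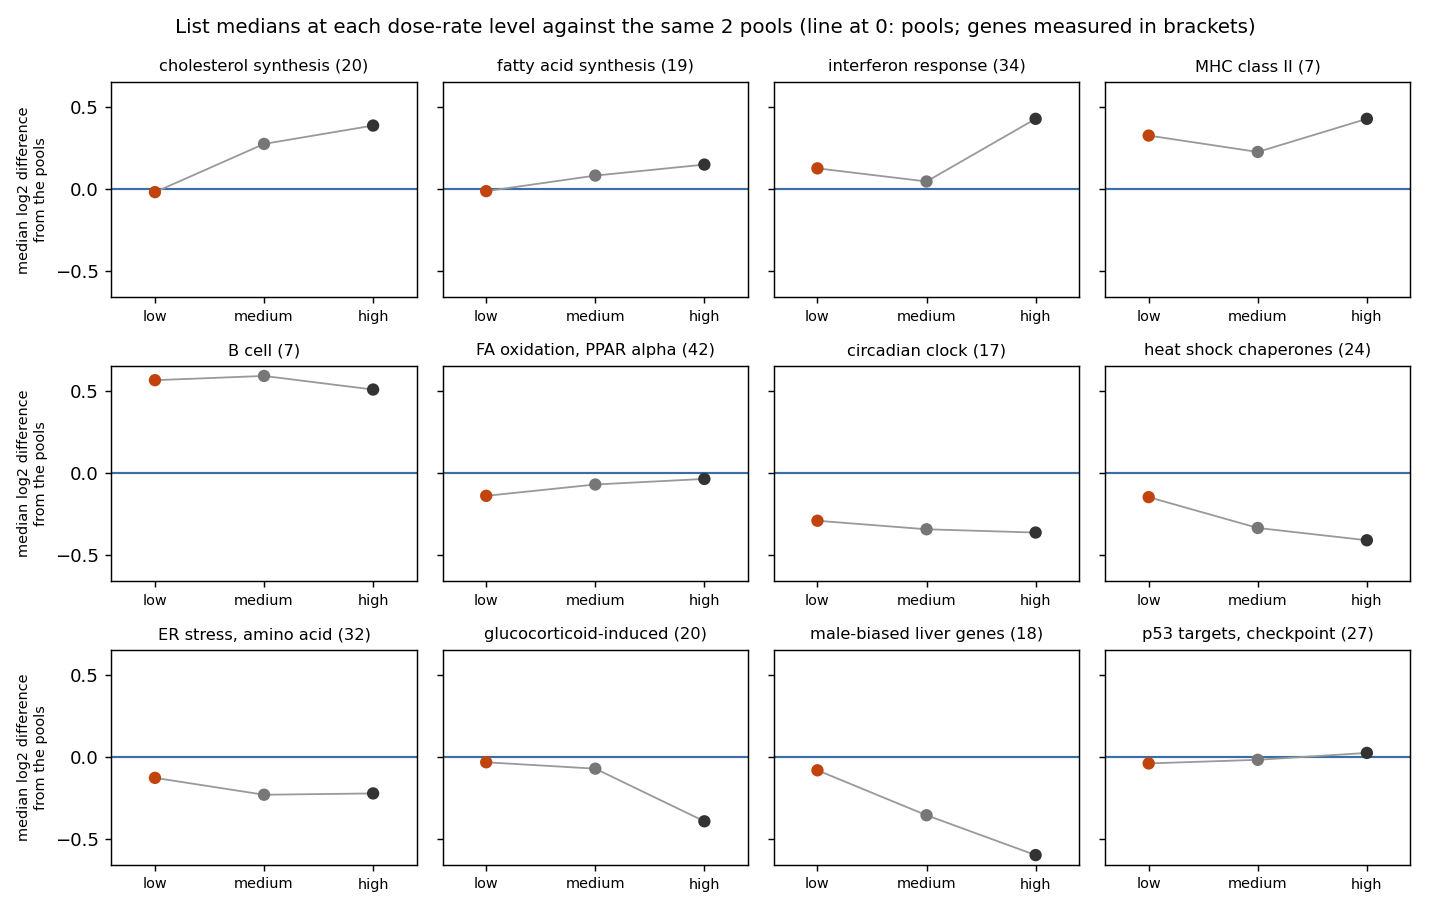
Median over 12 gene lists of the log2 difference from the same 2 control pools at each dose-rate (low, medium, high), with the pools at 0 and the number of genes in brackets. Cholesterol synthesis is at -0.02, 0.28 and 0.39, while the clock list is at -0.29, -0.34 and -0.36. Of the 17 clock genes 14, 13 and 11 were lower, in that order.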

How the data were processed

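Liver RNA was hybridized to Affymetrix arrays. The deposited values are signal intensity made with MAS5, per the submitters' processing notes, which give no version. The 2% trimmed mean was 500 on all 20 arrays. Of 45101 probe sets, 34945 had 1 symbol in the platform annotation, 932 several and 9160 none, and 64 were array controls. Signals were taken as log2(signal + 7.12), which understates the change of dim genes. Probe sets with a mean log2 over all 20 arrays at or above the median were kept (22519). Of these 1 was used per gene (_s_at and _x_at sets only where no other remained, then by highest mean), leaving 11216 genes. limma 3.58.1 in R 4.3.3 (lmFit, eBayes with a variance trend) was fitted to all arrays with level and experiment (15 residual degrees of freedom), and contrasts were two-sided, adjusted after Benjamini-Hochberg with a threshold of 0.05. Errors are standard errors of the contrast. P-values measure the spread between these arrays, and 2 pools limit the precision. No arrays were identical. Same-numbered mice of an experiment had residual correlations of -0.152 to 0.3, with 8 of 18 over 0.1. Mice of different number were not compared, so this does not settle whether numbers pair mice.

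Named were genes past the threshold, then the 12 smallest p per direction with 1 sign in 6 of 6 mice, up to 8 per direction by the 1.5-fold rule, all clock and fatty acid oxidation genes, the smallest p of other lists (4 per pathway list, 3 per cell type list), and 3 per direction of the other contrasts. Of 807 symbols in 33 lists 731 were on the array, 10 through an older symbol, and 639 passed the filter. Among these 10, Loxl2 was read as Loxl3 and Trf as Trh, which are other genes than those listed. Loxl3 thus entered the extracellular matrix list, while Trh did not pass the filter. Members and lists were chosen with earlier results of these data known. Alternatives changed the pseudocount, filter, normalization, trend, terms, arrays, pool weights and probe set, or left out 1 array. The procedure was tested on simulated data.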

Additional observations from a re-analysis of the deposited data

Results flagged for a closer look

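Of 168 sets of 6 low dose-rate values (genes and list medians), 9 held a mouse whose gap to the nearest other was over 0.625 of the range, Dixon's limit for 6, which chance gives in about 1 in 20 sets. As log2 differences from the own pool, mouse 3 of experiment 1 stood at -3.03 for Poc5 (nearest -1.37) and -1.06 for Nfil3 (nearest -0.35). Mouse 2 of experiment 1 stood at -1.82 for Slc27a1, a fatty acid transporter (nearest -0.17), and at 0.22 for the median of drug-metabolizing enzymes (nearest 0.03). Mouse 1 of experiment 1 stood at 1.5 for Apcs (nearest 0.44), 2.34 for Saa3 (nearest 0.47) and 0.44 for the acute phase median (nearest 0.04). Mouse 3 of experiment 2 stood at 0.08 for Acot4 (nearest -0.63) and -0.45 for the T and NK cell median (nearest -0.01).

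In other cases every mouse of one experiment lay on the opposite side of its pool from every mouse of the other. None of the genes passed limma's adjusted threshold for that difference, which is given here as experiment 2 minus experiment 1. Clock genes of this kind were Rora at 0.60 and Npas2 at 1.89. Immune genes were H2-Ab1 at -1.40, H2-Eb1 at -1.28, Ctss at -1.04, the interferon-induced Oasl1 at -0.92, Saa2 at -3.43 and Lcn2 at -3.94. Txndc11 was at 1.65, Syvn1 at 1.54, Nid2 at 1.79 and Glmn at -3.13. The list medians were -0.67 for interferon response, -1.09 for MHC class II and 0.22 for ganglioside synthesis, and these 3 differences were not tested.

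The 5' reading of the 18S ribosomal RNA control, which enters no comparison, was 3280, 43700 and 18600 in low dose-rate mice 1, 2 and 3 of experiment 1. It was 782 in the pool and 1670 to 16300 in the medium and high dose-rate mice of that experiment.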

How the results depend on the processing

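By limma, 1 gene passed for low against control, and 1 also passed with a pseudocount of 1, median-centred arrays, quantile normalization, no variance trend, no experiment term or the probe set of highest mean. The count was 0 with a pseudocount at the 25th percentile, no filter, the top 30% of probe sets, the 8 low and control arrays only, experiment 1 alone, experiment 2 alone, or without low mice 2 and 3 of experiment 1 (chosen after seeing the data), and 17 with pools weighted by their mice. Leaving out 1 array gave 0 to 12, the 12 without the experiment 2 pool. The difference between experiments gave 2 genes with quantile normalization, against 0. Low against medium gave 0 throughout, leave-one-out 0 to 0. Low against high gave 1 with quantile normalization and 0 to 17 leaving out 1 array. With the mouse number as a replicate block it gave 1, and low against medium gave 0, but whether the numbers pair the mice was not settled. The pools carry no such numbers, so no paired fit of low against control was possible. The 1.5-fold rule (18 genes) gave 8 with the larger pseudocount, 150 with no filter, 10 with quantile normalization, 3 at 2-fold, 43 without low mice 2 and 3 of experiment 1 and 21 to 37 leaving out 1 array. Of 31 named genes in 1040 gene and setting pairs, 1002 kept direction and side of the threshold, 14 lost the call (Ccdc8), 22 gained one, and Ssr4 reversed to -0.014 with the top 30% of probe sets and with the probe set of highest mean, which read its other probe set. The cause of the other changes was not tested. Dim signals limit the size of many differences.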
